A study of Drosophila melanogaster with 12 samples.

Results

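Wild-type adult flies were set against wild-type larvae of Drosophila melanogaster over 18769 probe sets, all those on an Affymetrix Drosophila genome array that are not the maker's controls. The comparison took the 3 arrays labelled wild type at the adult stage and the 3 labelled wild type at the larval stage, 6 of the 12 arrays of the series. The other arrays were of adults and larvae with a knockdown of Sps2, the gene of selenophosphate synthetase 2; they lent their spread to the fit and are compared in 1 place below. Every group was raised on cornmeal and yeast food at 1 temperature and humidity, and the labels call the 3 arrays of a group separate biological replicates. No allele or treatment is named for the wild-type animals, and the sources used here do not give their line, sex, age within a stage or part of the body. A level is given as the signal, the deposited log2 value put back on its linear scale. A difference is adult minus larva on the log2 scale, and a call needed a limma adjusted p under 0.05 and a change of at least 2-fold. The signal of 1 probe set is not comparable with that of another, so levels are compared only between the stages.

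Flies pass from larva to adult through a pupal stage in which most larval tissues break down and adult ones form from imaginal discs and other set-aside cells. The larva is a feeding and growing form: its fat body secretes storage proteins, its salivary glands make the glue that fixes the puparium, and its soft cuticle is rebuilt at each moult. The adult flies, sees through compound eyes and reproduces, with yolk, eggshell and eggs made in females and sperm and seminal fluid proteins made in males. In RNA of whole tissues, fewer cells of a type and less RNA per cell cannot be told apart.

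The stages differed in ways that are not confined to single genes. The median log2 value of an array averaged 6.72 ± 0.05 in adults and 6.01 ± 0.05 in larvae (SD, n = 3 each). The control probe sets at the 3′ end exceeded those at the 5′ end by 2.42 ± 0.07 log2 in adults and by 3.51 ± 0.11 in larvae; its part in the differences was not tested. Spearman's rho across probe sets was 0.968 to 0.970 within adults, 0.945 to 0.948 within larvae and 0.781 to 0.794 between the stages. Larval replicate 1 had 14 of 8943 genes at least 4-fold below both other larval arrays, against 3 for each of the other larval replicates, and values that rest on it are marked where they occur. Signals below the 40th percentile of an array, on average 40.2 in adults and 35.7 in larvae, are called low here: a fold against a low group is a lower bound ("at least"), set by that percentile, and genes low in both groups get no fold.

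Much of the array differed between the stages. Of 18769 probe sets, 7561 (40.3%) were called, 4926 (26.2%) higher and 2635 (14%) lower in adults, and 632 and 415 of these differed by at least 16-fold. The adjusted p alone passed for 58.2% of probe sets and 73.7% of genes, and the arrays of the stages did not overlap for 65% of probe sets and 79% of genes. With 1 probe set per gene there were 11982 genes, of which 4208 (35.1%) rose and 1842 (15.4%) fell, and the median difference over all genes was 0.49. The split depends on scaling: 65.2% of the calls were higher in adults with the deposited values, 52.2% after quantile normalization and 34.7% with each array centred on its median. Quantile normalization left 18.4% of probe sets higher and 16.8% lower (24.4% and 19.5% of genes), and centring 15% higher and 28.2% lower (20.3% and 27.9% of genes). The median over all genes was 0.13 after quantile normalization and -0.22 with centring, so a difference within about 1 log2 unit of 0 has no settled side. Called the same way under all 3 scalings were 2788 probe sets higher and 2337 lower in adults. At the other end, 1752 genes were low in both stages, and a change there is not measured. Of the probe sets called, 671 were low in both stages. With a floor at the 40th percentile 6265 probe sets were called, 4460 higher and 1805 lower in adults.

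**Figure D1:**
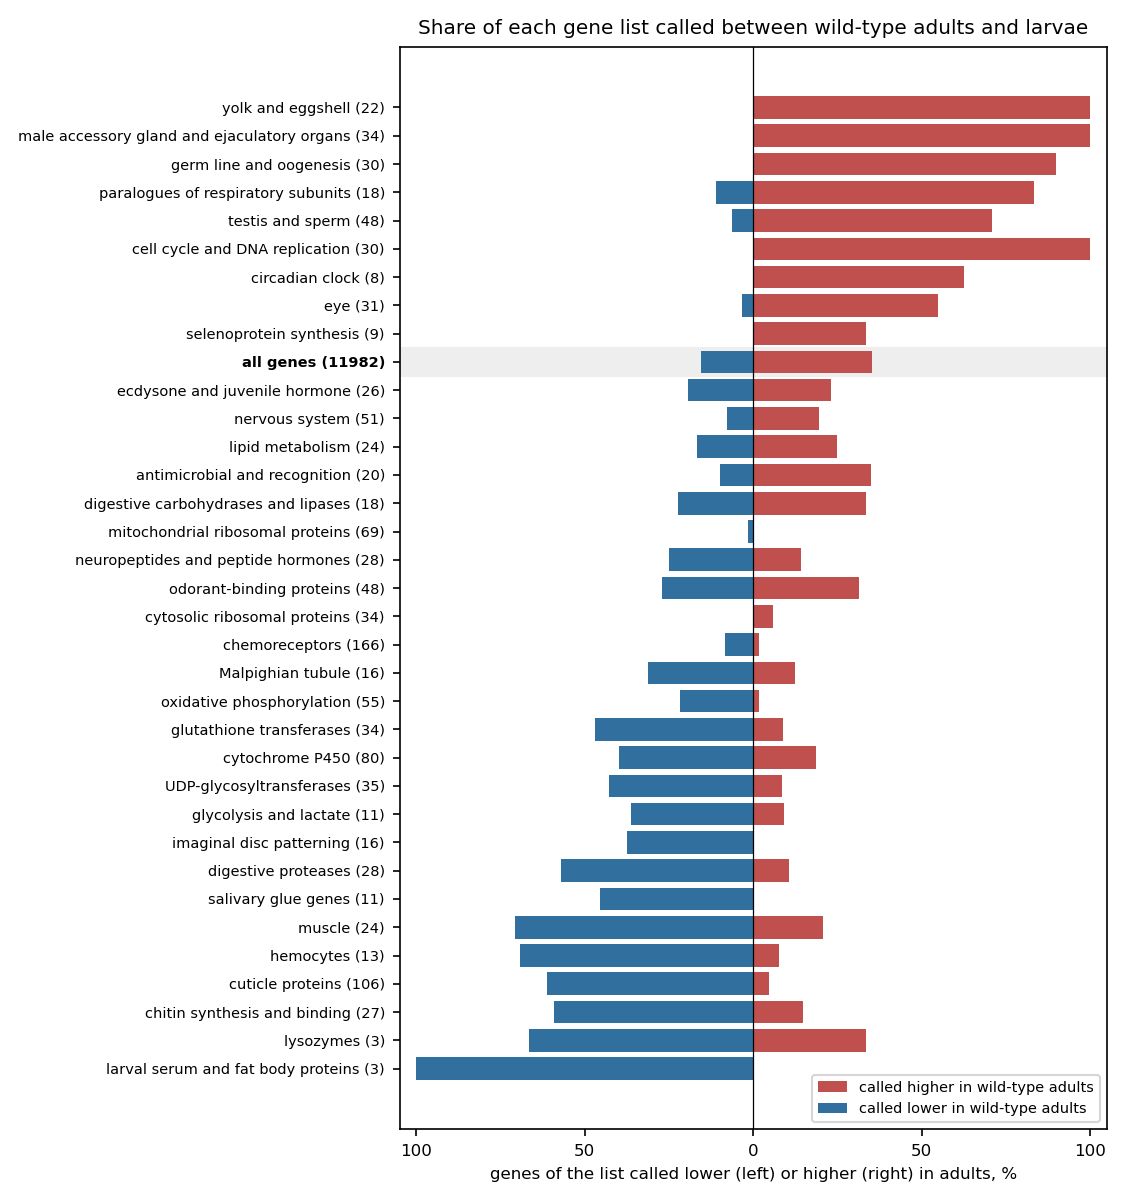
Share of the genes of each list (number of genes in brackets) called higher (right) or lower (left) in wild-type adults than in wild-type larvae, in percent, with lists ordered by their median difference. The shaded row is all 11982 genes, with 35.1% higher and 15.4% lower; reproductive and cell cycle lists extend to the right, and larval fat body, chitin, cuticle, hemocyte and muscle lists to the left.

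The genes of egg production rose. All 22 of the yolk and eggshell list were called higher in adults (all genes 35.1%), with a median difference of 7.83. The yolk proteins Yp1, Yp2 and Yp3 are made by the fat body and ovarian follicle cells of females and taken up by the egg. Yp1 read 16993, 17931 and 17881 in adults, against 22.7, 6.08 and 10.1 in larvae, at least 493-fold higher (adjusted p = 1.18e-11). Yp3 read 14608, 15103 and 14218 in adults, against 276, 485 and 318 in larvae, a 41.9-fold difference (log2 5.39, SE 0.15, adjusted p = 2.4e-12). Larval arrays had a Yp3 signal above the low level. Yp2 was low there, with 16767, 17154 and 17479 in adults, against 23.2, 5.37 and 27.8 in larvae.

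Follicle cells lay down the vitelline membrane and then the chorion, the outer shell. The vitelline membrane gene Vm34Ca read 20507, 20856 and 22638 in adults, against 30.1, 52.3 and 37.8 in larvae, 545-fold higher (log2 9.09, SE 0.17, adjusted p = 4.62e-14). The chorion gene Cp15 read 13715, 11931 and 14086 in adults, against 83.4, 32 and 66.6 in larvae (log2 7.88, SE 0.35, adjusted p = 1.49e-10). For Cp36 the signals were 11275, 12005 and 12800 in adults, against 10.3, 25.5 and 27.3 in larvae, at least 337-fold higher (adjusted p = 7.39e-09). The other named eggshell genes, Vm26Aa, Vm32E, Cp16, Cp18, Cp19, Cp38 and dec, rose by between 80.3-fold (Cp18) and at least 387-fold (Vm26Aa). Send1 and Send2, serine proteases of the spermathecal secretory cells, where females store sperm, averaged 1139 and 862 in adults, against 4.10 and 6.24 in larvae.

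Genes of the germ line and of maternal RNA loading were the next group, with 27 of 30 higher (all genes 35.1%), 0 lower and a median of 4.76. Nanos and osk, which specify the posterior of the embryo and its germ cells, and bcd, which patterns its anterior, are deposited in the egg as RNA. The gene nanos read 7068, 6957 and 6891 in adults, against 17.1, 29.4 and 16.8 in larvae, at least 195-fold higher (adjusted p = 7.35e-12). The signal of osk was 6725, 6833 and 7169 in adults, against 14, 9.21 and 18.6 in larvae, at least 194-fold higher (adjusted p = 4.31e-08). Its other probe sets gave differences of 8.92 to 11.27. For smg, a repressor of maternal RNAs, the adult arrays read 7317, 7503 and 7453 and the larval ones 273, 268 and 221 (log2 4.88, SE 0.08, adjusted p = 1.29e-14). CycB3, a mitotic cyclin, rose 33.6-fold and gcl, a germ cell factor, 10.2-fold.

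The helicase gene vas, a standard germ line marker, was near the low level at both stages on its probe set, with 58.5, 39.6 and 40 in adults, against 30.7, 23.5 and 8.86 in larvae, and its call was lost without adult replicate 1 (1.10) or larval replicate 3 (0.75). The 3 members not called were tud (-0.24), bgcn (-0.26) and grk (0.38), chosen for naming after their values were seen.

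Male reproductive genes rose as widely. All 34 genes of the accessory gland and ejaculatory organs were called higher (all genes 35.1%), with a median of 7.38, and 1 of them was low in both stages. The accessory gland secretes seminal proteins that change the mated female's behaviour and egg laying, and SP encodes the sex peptide. SP read 5176, 5608 and 4461 in adults, against 21.5, 17.7 and 19.5 in larvae, at least 142-fold higher (adjusted p = 2.22e-08). Acp36DE, needed for sperm storage, read 6217, 6928 and 4761 in adults, against 35.8, 33.5 and 13.1 in larvae, at least 165-fold higher (adjusted p = 4.74e-11). The seminal protein gene Acp98AB read 10559, 12065 and 10061 in adults, against 2.15, 2.44 and 2.26 in larvae, at least 304-fold higher (adjusted p = 4.1e-10). Ebp, a protein of the ejaculatory bulb, read 13102, 14468 and 11477 in adults, against 23.4, 21.8 and 32.6 in larvae, at least 363-fold higher (adjusted p = 1.19e-10). For these genes the groups lay far apart, and every larval mean was low. The adult arrays held RNA of both female and male reproductive genes.

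Testis genes split by role. Of 35 genes of sperm structure and late spermatogenesis, 32 rose and 0 fell, with a median of 3.16. Of 13 regulators of spermatogenesis, 2 rose, 3 fell and the median was -0.35. Among all genes 35.1% rose and 15.4% fell. Mst87F, a sperm tail protein, read 1573, 1827 and 1802 in adults, against 125, 131 and 96.6 in larvae, a 14.9-fold difference (log2 3.89, SE 0.17, adjusted p = 1.24e-10). The testis tubulin betaTub85D read 1819, 1877 and 2132 in adults, against 203, 233 and 209 in larvae (log2 3.18, SE 0.15, adjusted p = 2.17e-10). Both were above the low level in larvae. The sperm tail genes dj and djl rose 3.96-fold and 10.2-fold, Mst84Da and Mst84Dc 14-fold and 13-fold, and w-cup 17.3-fold.

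The testis-specific TAF genes Taf12L and nht, which act in spermatocyte transcription, moved the other way. Taf12L read 93.2, 90.6 and 126 in adults, against 371, 318 and 264 in larvae, 3.1-fold lower (log2 -1.62, SE 0.18, adjusted p = 1.66e-06). The call of nht (log2 -1.55) was lost without larval replicate 1, and the third regulator called lower, aly, was low in both stages. Their partners can and sa were not called: can read 43.7, 46.9 and 37.6 in adults, against 65.4, 74.3 and 51.9 in larvae, and sa read 49.3, 65.4 and 50.8 in adults, against 11.6, 55.8 and 72.3 in larvae (0.60; -0.21 without larval replicate 1). The 2 regulators that rose, named after their values were seen, were the meiotic phosphatase twe (log2 4.07) and the RNA-binding protein bol (1.77).

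All 30 genes that drive the cell cycle or copy DNA rose (all genes 35.1%), with a median of 2.21. After quantile normalization 25 were called, and 25 with centring. CycB, a mitotic cyclin, read 12194, 12816 and 12683 in adults, against 507, 525 and 530 in larvae, 24.1-fold higher (log2 4.59, SE 0.05, adjusted p = 2.34e-16). PCNA, the sliding clamp of DNA polymerase, read 4377, 4219 and 4083 in adults, against 1068, 954 and 1034 in larvae (log2 2.05, SE 0.05, adjusted p = 9.81e-13). Orc1 of the origin recognition complex rose 13.2-fold, the licensing factor dup 10.1-fold, the replicative helicase subunit Mcm2 5.7-fold and the ribonucleotide reductase subunit RnrL 4.25-fold. The anaphase factor fzy rose 10.5-fold on its brightest probe set, and its others gave -0.86 and 0.29. On all 30 genes the 3 adult arrays lay above the 3 larval ones, which held of 79% of all genes in 1 direction or the other.

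**Figure D2:**
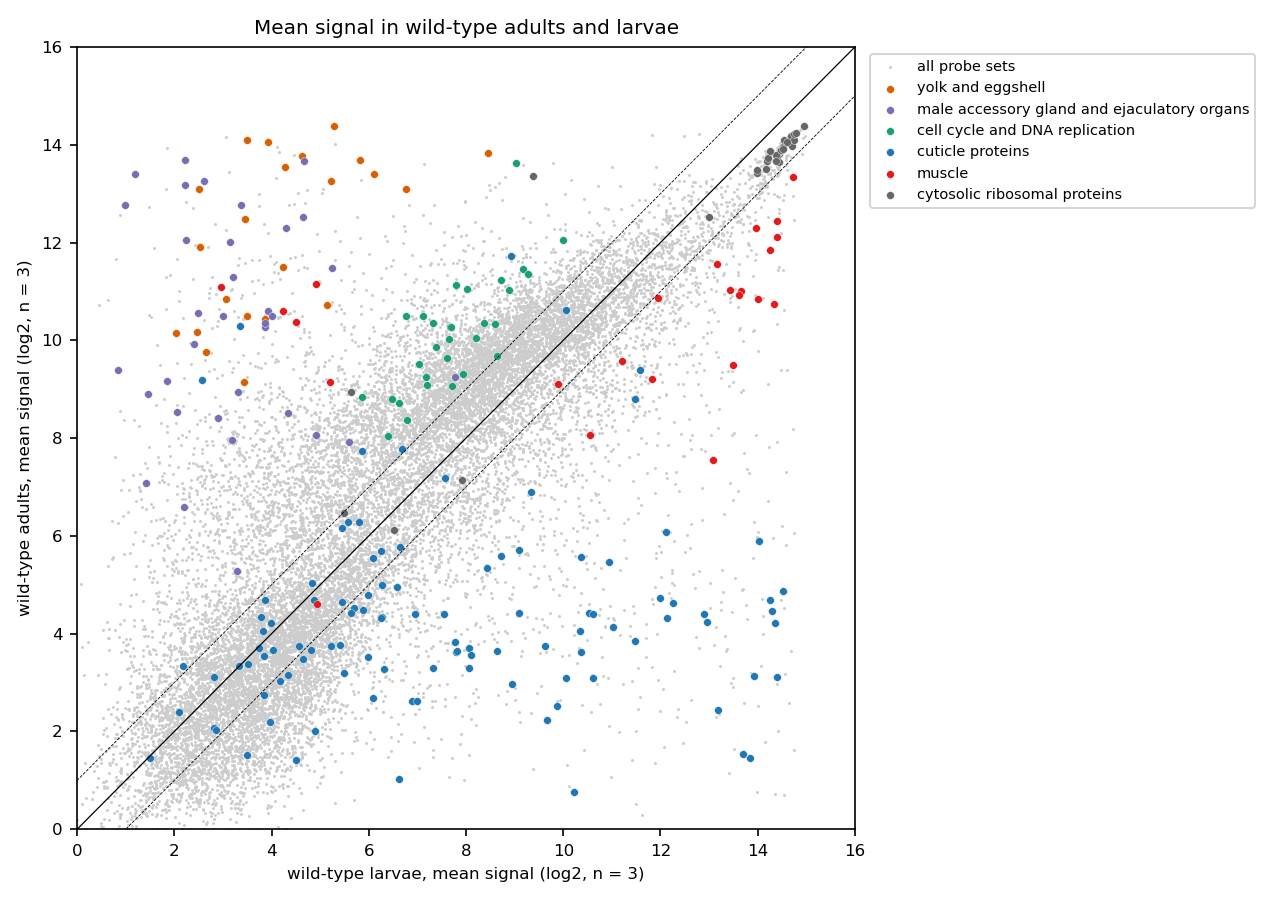
Mean log2 signal of each probe set in wild-type adults (vertical) against wild-type larvae (horizontal), n = 3 arrays each, with 6 gene lists coloured; the solid line marks equal signal and the dashed lines 2-fold. Yolk, eggshell and seminal genes lie at the upper left, with list medians of 7.83 and 7.38, many cuticle genes at the lower right, and cell cycle genes above the upper dashed line.

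Muscle genes split by isoform. Sarcomere genes of general use fell in 15 of 17 cases (all genes 15.4%) with a median of -2.29, all 5 genes tied to adult muscle rose, and both genes listed as larval isoforms fell. Tropomyosin 2 (Tm2), which covers the actin filament, read 1691, 1666 and 1784 in adults, against 20767, 20720 and 20611 in larvae, 12.1-fold lower (log2 -3.60, SE 0.04, adjusted p = 1.12e-15). Paramyosin (Prm), of the thick filament, fell 9.0-fold, alpha-actinin (Actn), of the Z-disc, 6.3-fold, and the titin-like bt 5.3-fold. The fall kept its direction under quantile normalization (13 of 17 called) and centring (16 of 17). Not called were Strn-Mlck (-0.79), a myosin light chain kinase, and Zasp67, low in both stages.

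The flight muscle actin Act88F read 524, 574 and 604 in adults, against 30.5, 42.9 and 38.5 in larvae, 15.4-fold higher (log2 3.94, SE 0.15, adjusted p = 4.56e-11). Flightin (fln), a thick filament protein of flight muscle, read 1507, 1539 and 1587 in adults, against 6.49, 31.1 and 32.5 in larvae, at least 43.3-fold higher (adjusted p = 1.78e-08). Another actin, Act79B, of adult leg and other tubular muscles, read 2270, 2075 and 2519 in adults, against 36.8, 25.4 and 28.8 in larvae, at least 63.4-fold higher. Adult and larval arrays did not overlap for any of these, which held of 79% of all genes. The larval muscle actin Act87E showed the reverse, with 2036, 1791 and 2019 in adults, against 12253, 13389 and 12130 in larvae (log2 -2.69, SE 0.06, adjusted p = 3.96e-13).

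Troponin C, the calcium sensor of the thin filament, has several genes in the fly. TpnC4 read 2226, 2169 and 2176 in adults, against 28, 2.91 and 5.84 in larvae, at least 61.4-fold higher (adjusted p = 2.29e-06), and TpnC41C rose at least 37.2-fold. TpnC73F read 184, 185 and 190 in adults, against 8612, 8499 and 8787 in larvae, 46.3-fold lower (log2 -5.53, SE 0.11, adjusted p = 8.57e-14). A second TpnC73F probe set gave -0.49, so the size of that fall depends on the probe set.

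**Figure D3:**
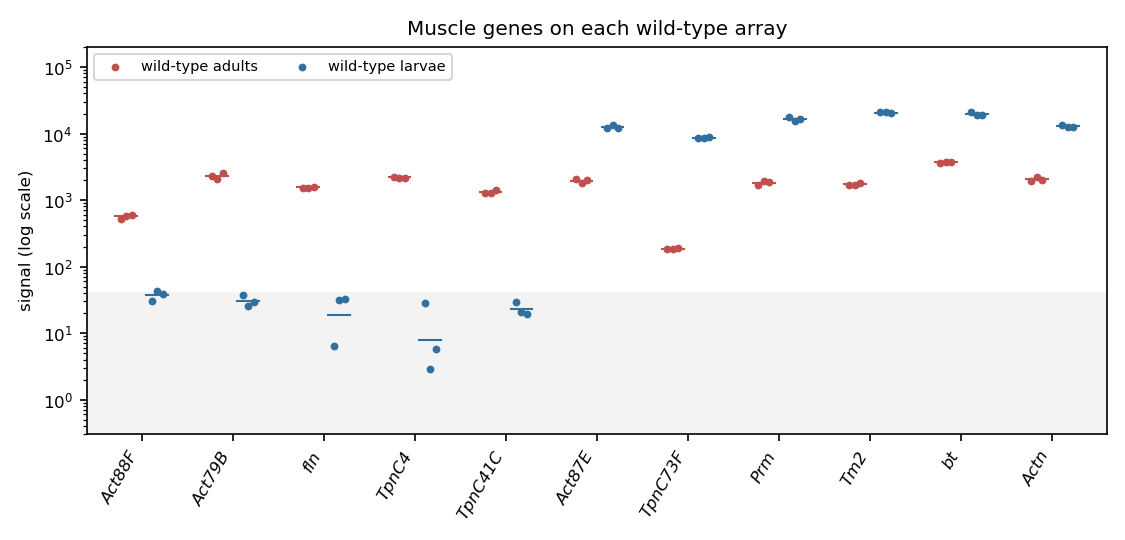
Signal (log scale) of 11 muscle genes on each wild-type array, adults left of larvae for each gene, with a bar at the geometric mean of 3 arrays and shading below the adult 40th percentile (40.2). The 5 adult isoforms at the left read 524 to 2519 in adults and at most 42.9 in larvae, and the other 6 genes are lower in adults.

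Of 31 eye genes, 17 rose (54.8%, beside 35.1% of all genes), 1 fell and 5 were low in both stages, with a median of 1.10. Light in a photoreceptor activates rhodopsin and, through phospholipase C, opens the TRP channel; arrestins end the response. Arr2, the main arrestin, read 8388, 8650 and 9240 in adults, against 35.8, 30.5 and 33.3 in larvae, at least 245-fold higher (adjusted p = 9.22e-10). Arr1 read 5503, 6097 and 6435 in adults, against 94.7, 66.5 and 119 in larvae (log2 6.05, SE 0.16, adjusted p = 1.03e-12). The channel gene trp read 593, 632 and 564 in adults, against 2.61, 22.8 and 1.65 in larvae, at least 16.7-fold higher (adjusted p = 1.27e-06).

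Pdh, a retinol dehydrogenase of pigment cells, read 4752, 4860 and 5076 in adults, against 6.42, 28.2 and 3.19 in larvae, at least 137-fold higher (adjusted p = 1.88e-08), and the corneal lens protein retinin rose at least 29.5-fold. The single eye gene called lower in adults with the deposited values was ninaD, a scavenger receptor for carotenoid uptake that also acts outside the eye. It read 297, 246 and 263 in adults, against 4963, 7868 and 6764 in larvae (log2 -4.58, SE 0.19, adjusted p = 8.46e-11). After quantile normalization 13 eye genes were called higher and 3 lower, and centring gave the same counts. Of the 5 pigment genes, 1 was called, se (log2 4.50), named after its value was seen.

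The nervous system list did not move as a block. Of 51 genes 10 rose (19.6%, beside 35.1% of all genes) and 4 fell (7.84%, beside 15.4%). The median was 0.23, and after quantile normalization 2 rose and 8 fell with a median of -0.39. Among 10 synaptic genes 5 rose, but 1 after quantile normalization and 1 with centring. One of the 5 was Snap25 of the vesicle fusion machinery, which read 850, 856 and 936 in adults, against 379, 295 and 367 in larvae (log2 1.35, SE 0.10, adjusted p = 2.52e-08; 0.71 and not called after quantile normalization). Another of the 5 was nSyb, with 115, 89.7 and 115 in adults, against 30.8, 8.97 and 28 in larvae. It was at least 2.96-fold higher (adjusted p = 0.00042) and was also called after quantile normalization and with centring. The neuronal RNA-binding protein elav fell, with 212, 181 and 209 in adults, against 436, 468 and 492 in larvae (log2 -1.21, SE 0.12, adjusted p = 5.87e-07). Not called were ChAT (0.46), which makes acetylcholine, Gad1 (0.94), which makes GABA, and the glial factor repo (0.22), and none of the 7 glial genes passed the call.

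Peptide hormones went both ways, with 4 of 28 higher and 7 lower (12 lower after quantile normalization). The shares are 14.3% and 25%, beside 35.1% and 15.4% of all genes. Nplp4, a neuropeptide-like precursor, read 91.3, 104 and 121 in adults, against 19247, 18665 and 18768 in larvae, 180-fold lower (log2 -7.49, SE 0.11, adjusted p = 6.2e-15). Nplp3 moved oppositely, with 2764, 2610 and 3264 in adults, against 102, 99.1 and 53.7 in larvae (log2 5.14, SE 0.21, adjusted p = 7.11e-11). Ilp8, a relaxin-like hormone that delays pupariation and is also made in the ovary, rose at least 14.8-fold, with 748, 347 and 597 in adults, against 23.2, 38.3 and 34.2 in larvae. The insulin-like Ilp5 fell 2.1-fold, ETH, which triggers ecdysis, at least 3.1-fold and Mip 2.6-fold. Ilp2 (-0.88) and the adipokinetic hormone Akh (0.20) were not called, but Ilp2 was lower after quantile normalization (-1.71) and with centring (-1.60).

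Odorant-binding proteins, small carriers in sensory lymph and other fluids, were divided: 15 of 48 rose, beside 35.1% of all genes, 13 fell (25 with centring) and 13 were low in both. Obp51a read 3905, 3961 and 3470 in adults, against 2.45, 1 and 10.8 in larvae, at least 106-fold higher (adjusted p = 8.38e-09), and Obp56g rose at least 198-fold. Obp83g read 5.39, 2.62 and 8.31 in adults, against 9152, 8874 and 8964 in larvae, at least 224-fold lower (adjusted p = 1.66e-07). Obp56a fell 15.5-fold and Obp28a 12.0-fold, while Obp19d rose 77.4-fold. Of the 166 odorant, gustatory and ionotropic receptors, 161 were low in both stages, so the 3 called higher and 14 called lower are not read further; the exception by size was Ir7c, with 142, 124 and 131 in adults, against 5.05, 3.43 and 1 in larvae, at least 3.7-fold higher.

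All 3 genes listed as larval fat body proteins were called lower in adults (all genes 15.4%), with large spread between larval arrays. The Lsp1 storage protein genes were not among the 3. Lsp2, a storage protein that larvae secrete before metamorphosis, read 225, 142 and 331 in adults, against 881, 17318 and 16597 in larvae, 28.8-fold lower (log2 -4.85, SE 0.85, adjusted p = 0.000178). Larval replicate 1 lay well below the other larval arrays, and the difference was -6.27 without it, -4.12 without replicate 2 and -4.15 without replicate 3. Fbp2, a fat body protein, read 19.2, 4.19 and 3.45 in adults, against 319, 8382 and 10720 in larvae, at least 76.1-fold lower (adjusted p = 5.1e-06), and again larval replicate 1 was the low one. Fbp1 was low in both stages, and its call was lost without larval replicate 3.

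Lipid genes moved less, with 6 of 24 higher (25%), 4 lower (16.7%) and a median of 0.13. Among all genes 35.1% were higher and 15.4% lower, and with centring 1 lipid gene was higher and 10 lower. The fatty acid synthase FASN1 read 9116, 9352 and 9606 in adults, against 24986, 24259 and 24049 in larvae (log2 -1.38, SE 0.04, adjusted p = 6.85e-12), and ACC, which makes its substrate, fell 2.4-fold; after quantile normalization they gave -0.67 and -0.98, outside the call. The lipase bmm, which frees stored fat, rose 2.83-fold (0.79 on the log2 scale and not called with centring). NLaz, a lipocalin, read 1768, 1903 and 1842 in adults, against 108, 107 and 138 in larvae, 15.7-fold higher (log2 3.97, SE 0.12, adjusted p = 3.55e-12). The lipoprotein genes Apoltp and Mtp fell 2.2-fold and 2.3-fold, and apolpp (-0.85; -1.56 and lower with centring) was under 2-fold.

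In the salivary gland list the new-glue genes fell far, while the glue genes named were low in both stages or fell from low larval signals. The X-linked ng2 read 2.23, 17 and 1.06 in adults, against 18368, 18140 and 17705 in larvae, at least 449-fold lower (adjusted p = 6.85e-09). Its neighbours in the list, ng1 and ng3, fell at least 334-fold and at least 399-fold. The glue genes Sgs3 and Sgs8, by contrast, were low in both stages: Sgs3 read 3.7, 2.41 and 11 in adults, against 5.31, 10.9 and 8.77 in larvae. Sgs7 varied between larval arrays, with 11.8, 3.7 and 2.15 in adults, against 3.8, 245 and 75.3 in larvae, and its call was lost without either of larval replicates 2 and 3 and without either of adult replicates 2 and 3. Sgs4 read 1, 10.1 and 14.8 in adults, against 23, 47.4 and 51.4 in larvae (log2 -2.85, SE 0.88, adjusted p = 0.0126). It was also called lower under the other scalings, and its larval mean of 38.2 was just above the low level. In all, 5 of 11 fell (45.5%, beside 15.4% of all genes) and 5 were low in both. Pig1, a pre-intermoult gene of the same gland that belongs to no list, read 7.24, 1.62 and 3.31 in adults, against 5473, 5239 and 6187 in larvae, at least 140-fold lower.

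Cuticle proteins were mostly lower in adults. Of 106 genes, 65 fell (61.3%, beside 15.4% of all genes), 5 rose, 27 were low in both and the median was -2.51. Among the genes named as larval cuticle proteins 9 of 10 fell, of the Cpr family, defined by a chitin-binding domain, 42 of 70, and of the Tweedle family 13 of 24. Lcp65Ae read 1.36, 3.95 and 3.82 in adults, against 16061, 14365 and 13932 in larvae, at least 367-fold lower (adjusted p = 8.15e-11). Lcp9 read 20.2, 12.4 and 26.3 in adults, against 20248, 21548 and 21380 in larvae, at least 523-fold lower (adjusted p = 5.98e-10). Cpr47Ec read 9.51, 7.58 and 9.01 in adults, against 22325, 21294 and 21554 in larvae, at least 540-fold lower (adjusted p = 1.03e-15). On all 3 genes the adult mean was low and the larval arrays lay close together.

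The 5 Cpr genes that rose included Cpr49Ab, with 1216, 1160 and 1370 in adults, against 5.99, 34.4 and 5.06 in larvae, at least 34.9-fold higher (adjusted p = 3.78e-06), and Cpr65Au, 6.9-fold higher. Acp65Aa, named as an adult cuticle protein, was lower in adults, with 55.4, 40 and 51 against 229, 595 and 539 in larvae (log2 -3.12, SE 0.31, adjusted p = 7.3e-07). Genes that make, cut or bind chitin fell in 16 of 27 cases (59.3%, beside 15.4% of all genes), with a median of -3.25. They rose in 4 (14.8%, beside 35.1%). The chitin-binding obst-E read 199, 195 and 226 in adults, against 14100, 13210 and 13008 in larvae, 65.1-fold lower (log2 -6.02, SE 0.07, adjusted p = 7.43e-16; -4.51 on its other probe set), and the chitin deacetylase serp, which shapes the tracheal lining, fell 44.3-fold. The chitinase-family genes Cht8 and Cht12 rose at least 11.0-fold and at least 3.3-fold.

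**Figure D4:**
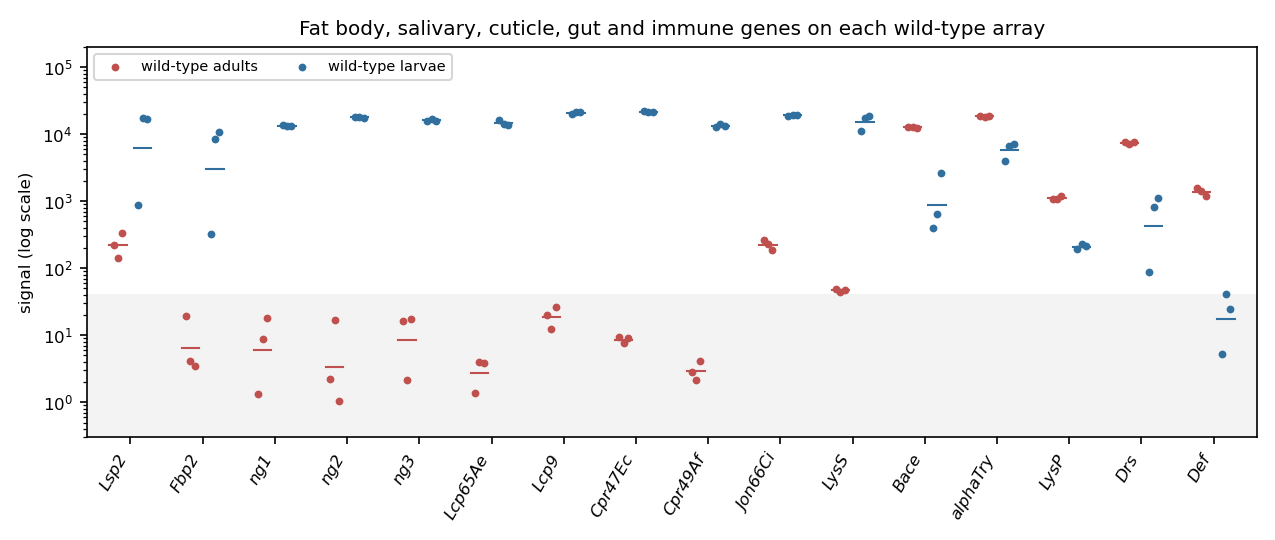
Signal (log scale) of 16 fat body, salivary gland, cuticle, gut and immune genes on each wild-type array, adults left of larvae for each gene, with a bar at the geometric mean of 3 arrays and shading below the adult 40th percentile (40.2). Larval replicate 1 is the low point for Lsp2 (881) and Fbp2 (319), and Bace, alphaTry, LysP, Drs and Def are higher in adults.

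Gut enzyme genes went both ways within families. Of 28 digestive proteases 16 fell (57.1%, beside 15.4% of all genes), 3 rose and the median was -1.14 (11 fell after quantile normalization). Of 14 Jonah genes, serine proteases of the midgut, 9 fell and 0 rose, with a median of -1.13. After quantile normalization 5 fell and 1 rose, with a median of -0.42, and with centring 13 fell and 0 rose. Jon66Ci read 265, 227 and 189 in adults, against 18822, 19543 and 19317 in larvae, 85.4-fold lower (log2 -6.42, SE 0.15, adjusted p = 2.91e-13). Members of these families are close copies, so a probe set may also read a relative. The trypsin alphaTry rose, with 18696, 18113 and 18755 in adults, against 3951, 6735 and 7044 in larvae (log2 1.69, SE 0.18, adjusted p = 1.38e-06; 0.98 and not called with centring). Another trypsin, zetaTry, read 818, 745 and 947 in adults, against 6460, 6153 and 5412 in larvae, 7.2-fold lower (log2 -2.85, SE 0.09).

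Bace, an aspartyl protease of the midgut, read 12755, 12847 and 12490 in adults, against 404, 650 and 2618 in larvae, 14.4-fold higher (log2 3.85, SE 0.46, adjusted p = 4.05e-06; 4.63 without larval replicate 3). Among maltases, which split disaccharides, Mal-A7 rose at least 7.6-fold and Mal-A1 3.5-fold while Mal-A3 fell 3.9-fold. The lipase mag read 2345, 2829 and 2503 in adults, against 14148, 16095 and 15588 in larvae, 6.0-fold lower. Lysozymes split too: LysS read 49.1, 43.8 and 47.9 in adults, against 11067, 17477 and 18650 in larvae, 327-fold lower (log2 -8.35, SE 0.39, adjusted p = 2.35e-10). LysP read 1097, 1081 and 1179 in adults, against 195, 229 and 211 in larvae (log2 2.40, SE 0.14, adjusted p = 2.33e-09).

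Detoxification families held many falls, beside 15.4% of all genes: 32 of 80 cytochrome P450 genes, 16 of 34 glutathione transferases and 15 of 35 UDP-glycosyltransferases fell, and 15, 3 and 3 rose. Their medians were -0.91, -0.89 and -0.94, and more negative still, at -1.62, -1.60 and -1.66, with centring. Cyp28a5 read 517, 529 and 569 in adults, against 9587, 12441 and 10744 in larvae, 20.2-fold lower (log2 -4.34, SE 0.09, adjusted p = 1.56e-13). Cyp6a19 showed the reverse, with 4608, 3935 and 4108 in adults, against 36.3, 37 and 55.8 in larvae, 99.8-fold higher (log2 6.64, SE 0.16, adjusted p = 5.97e-13). Cyp4g1, which makes cuticular hydrocarbons in oenocytes, rose 2.7-fold (1.43; 0.72 and not called with centring).

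Among the transferases, GstD2 read 84.1, 79.7 and 77.7 in adults, against 5344, 8035 and 9536 in larvae, 92.3-fold lower (log2 -6.53, SE 0.21, adjusted p = 7.09e-12). GstD7 fell at least 164-fold and GstD10 31.6-fold, while GstO1 rose 4.7-fold. Ugt37A3 read 30.9, 39.5 and 43.7 in adults, against 4022, 6041 and 4635 in larvae, at least 118-fold lower, and Ugt50B3 rose 5.8-fold. In the Malpighian tubules, which form urine, 5 of 16 listed genes fell and 2 rose, beside 15.4% and 35.1% of all genes. After quantile normalization 10 fell. Lkr, the leucokinin receptor, fell 3.7-fold, and the zinc transporter ZnT35C rose 4.0-fold.

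Hemocyte genes fell in 9 of 13 cases (69.2%, beside 15.4% of all genes), with a median of -1.96, and 1 rose. Hemolectin (Hml), a clotting protein of plasmatocytes, read 451, 449 and 537 in adults, against 1839, 1787 and 1964 in larvae, 3.9-fold lower (log2 -1.96, SE 0.08, adjusted p = 1.14e-10). The prophenoloxidase PPO1, which crystal cells release for melanization, read 256, 236 and 208 in adults, against 1416, 2343 and 2084 in larvae (log2 -3.03, SE 0.18, adjusted p = 3.7e-09). He fell at least 11.7-fold and the collagen IV genes Col4a1 and vkg 9.0-fold and 6.9-fold. The lineage factor srp (0.26) and the scavenger receptor crq (0.33), named after their values were seen, were not called.

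Antimicrobial peptide genes, made mostly by the fat body on infection, rose in 7 of 13 cases and fell in 2. Of all genes 35.1% rose and 15.4% fell. The antifungal drosomycin gene Drs read 7546, 7140 and 7758 in adults, against 87.2, 813 and 1121 in larvae, 17.4-fold higher (log2 4.12, SE 0.65, adjusted p = 6.49e-05); it was 2.97 without larval replicate 1 and 4.81 without larval replicate 3. Its relative Drsl4 read 5860, 5946 and 6268 in adults, against 162, 149 and 109 in larvae, 43.6-fold higher (log2 5.45, SE 0.16). Defensin (Def) read 1597, 1437 and 1185 in adults, against 5.2, 41.2 and 25 in larvae, at least 37.6-fold higher (adjusted p = 1.18e-07). DptB varied within both stages, with 465, 88 and 64 in adults, against 526, 1767 and 350 in larvae, and its call was lost without adult replicate 3 or larval replicate 2. None of the 7 recognition genes passed the call.

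Of 26 genes of ecdysone and juvenile hormone, 6 rose and 5 fell, beside 35.1% and 15.4% of all genes. The ecdysone early gene br, which directs pupal development, read 107, 106 and 117 in adults, against 1096, 1487 and 1263 in larvae, 11.6-fold lower (log2 -3.54, SE 0.16, adjusted p = 1.37e-10), with -2.31 to -0.41 on its other probe sets. Eip93F, an ecdysone-induced factor of late metamorphosis, read 349, 328 and 363 in adults, against 8.32, 12 and 10.2 in larvae, at least 9.7-fold higher (adjusted p = 6.63e-06), and its other probe set gave 1.31. In ecdysone synthesis, spok read 1.77, 14.8 and 1.77 in adults, against 171, 177 and 185 in larvae, at least 4.4-fold lower, and shd, which makes the active hormone, fell 7.9-fold; phtm (-1.04, adjusted p = 0.0606) and dib (-0.23) were not called, but phtm was lower after quantile normalization (-1.46) and with centring (-1.76). The juvenile hormone enzyme jhamt varied in adults, with 374, 273 and 127, against 78.9, 72.5 and 67.9 in larvae (log2 1.69, SE 0.31, adjusted p = 0.000269); it was not called after quantile normalization (0.91) or with centring (0.97).

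Imaginal disc patterning genes fell in 6 of 16 cases and none rose, with a median of -0.99. The share is 37.5%, beside 15.4% of all genes, and 11 fell after quantile normalization. The hedgehog effector ci read 357, 355 and 378 in adults, against 1076, 990 and 892 in larvae (log2 -1.44, SE 0.09, adjusted p = 4.21e-09). The Hox gene Scr read 42.2, 42.6 and 38.1 in adults, against 123, 114 and 111 in larvae, 2.8-fold lower (adjusted p = 0.000266). The wing pouch gene nub fell 2.2-fold, and dpp (-0.95), vg (-0.51, and 1.14 on its other probe set) and Dll (-0.41) were not called; dpp and Dll were lower after quantile normalization (-1.79 and -1.08).

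The medians and counts of housekeeping lists moved with the scaling. Of 34 cytosolic ribosomal protein genes, 32 were not called, with a median of -0.57, which was 0.08 after quantile normalization and -1.28 with centring, where 31 were called lower. The 2 that rose are paralogues: RpS5b, a gonad form, read 10176, 11101 and 10364 in adults, against 698, 603 and 684 in larvae, 16-fold higher (SE 0.16 log2, adjusted p = 6.1e-11). RpL10Aa read 480, 443 and 555 in adults, against 41.1, 54 and 54.7 in larvae (log2 3.31, SE 0.27). Mitochondrial ribosomal proteins had 1 call of 69 and a median of -0.20, which stayed negative under the other scalings (-0.48 and -0.91). Among all genes 35.1% were higher and 15.4% lower with the deposited values. The share lower was 19.5% after quantile normalization and 27.9% with centring. Subunits of oxidative phosphorylation had 12 of 55 lower (21.8%), 1 after quantile normalization and 53 with centring. The 1 called higher, under all 3 scalings, was ND-B8 (at least 13.6-fold). The median of these subunits was negative under all 3 scalings (-0.87, -0.21 and -1.58), and the number past 2-fold depends on the scaling.

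Second copies of respiratory subunits, named with an L after the main gene, moved apart from most of the main subunits. Of 18 such copies 15 rose (83.3%, beside 35.1% of all genes) and 2 fell (11.1%, beside 15.4%), with a median of 2.85. COX7AL2 read 5314, 5974 and 6337 in adults, against 45.8, 78.2 and 44.5 in larvae, 108-fold higher (log2 6.76, SE 0.19, adjusted p = 1.59e-12). The main gene COX7A read 7539, 7535 and 7895 in adults, against 17585, 16722 and 16025 in larvae (log2 -1.13, SE 0.04; -0.29 after quantile normalization). Glycolytic genes fell in 4 of 11 cases (36.4%, beside 15.4% of all genes) and 1 rose, with a median of -0.98. After quantile normalization 3 fell and the median was -0.14. Pfk, the committed step, was 2.6-fold lower (log2 -1.40, SE 0.08), and gave -1.32 after quantile normalization. Pgi (-1.30) and Gapdh1 (-1.02) gave -0.54 and -0.20 there, outside the call. Gpdh1 gave -1.81, and its other probe sets -1.45 to 2.43.

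**Figure D5:**
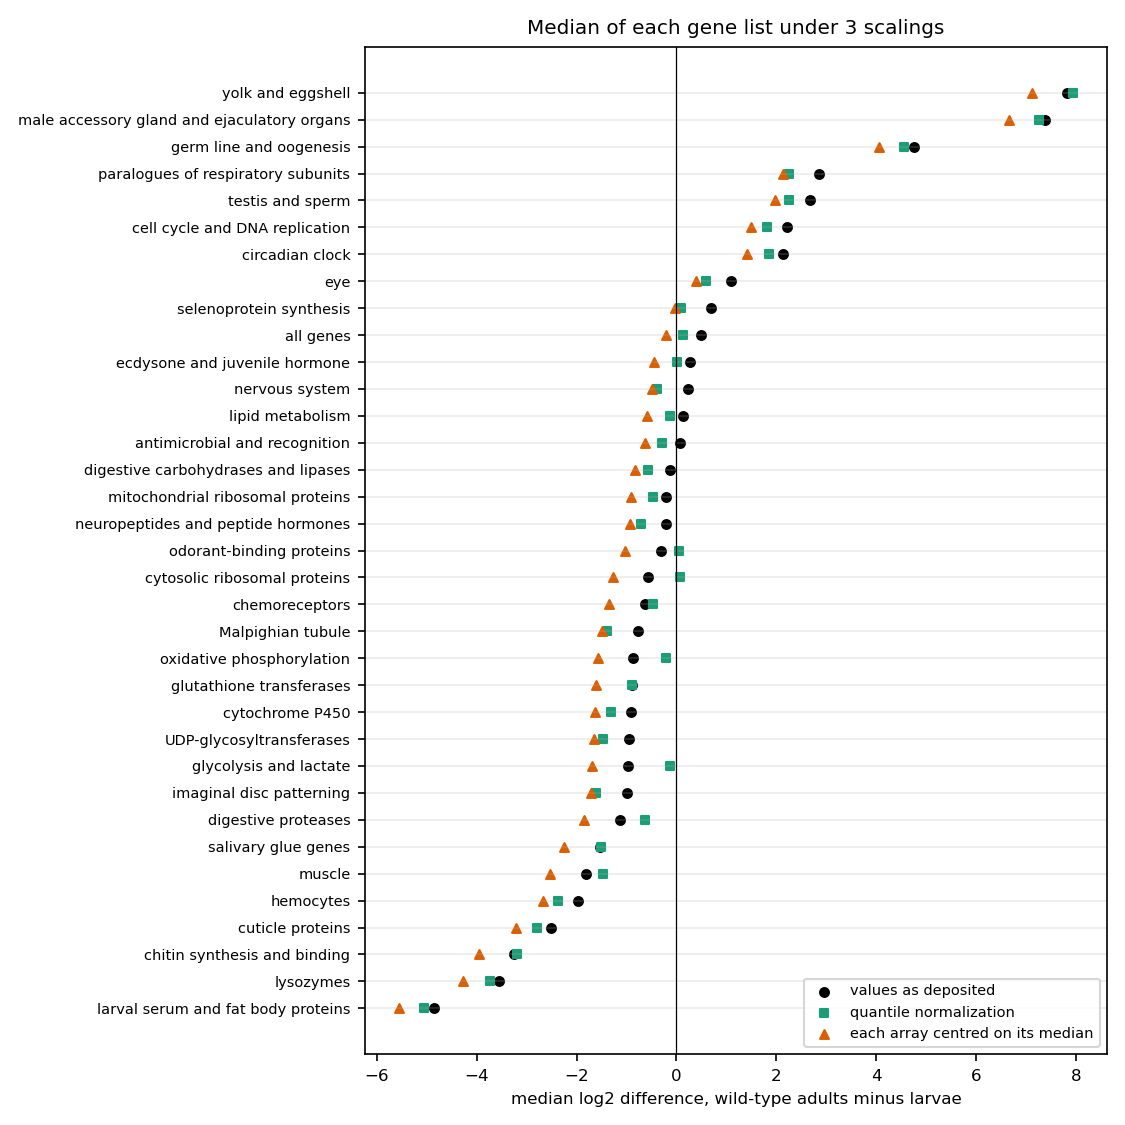
Median log2 difference, wild-type adults minus larvae, of each gene list under the deposited scaling (circles), quantile normalization (squares) and centring of each array on its median (triangles). The median of all genes moves between 0.49, 0.13 and -0.22, and that of cytosolic ribosomal proteins between -0.57, 0.08 and -1.28, while that of oxidative phosphorylation stays below 0 (-0.87, -0.21 and -1.58).

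Clock genes rose in 5 of 8 cases (62.5%, beside 35.1% of all genes). The sources used here do not give the time of day of collection. Timeless (tim), the partner of per, read 713, 755 and 843 in adults, against 76.5, 99.3 and 72.7 in larvae, 9.4-fold higher (log2 3.23, SE 0.16, adjusted p = 5.07e-10), and another tim probe set gave 1.25. The activator cyc rose 13.1-fold, and the photoreceptor cry read 416, 458 and 463 in adults, against 3.53, 20.7 and 14.7 in larvae, at least 12.5-fold higher. The call of vri (log2 1.38) was lost without larval replicate 1, after quantile normalization (0.64) and with centring (0.67). Per read 56.9, 61.1 and 52.1 in adults, against 5.84, 35.8 and 28.3 in larvae, and was not called (adjusted p = 0.101).

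In the selenoprotein pathway, the target of the series, 3 of 9 genes rose and 0 fell, a share of 33.3% beside 35.1% of all genes; with centring 1 rose and 1 fell. Sps2 itself read 902, 878 and 920 in wild-type adults, against 787, 718 and 830 in wild-type larvae (log2 0.21, SE 0.12, adjusted p = 0.163). BthD, a selenoprotein, read 1216, 1433 and 1215 in adults, against 164, 160 and 152 in larvae, 8.1-fold higher (log2 3.02, SE 0.10, adjusted p = 1.24e-11). Sbp2, which directs selenocysteine insertion, rose 3.3-fold and the elongation factor eEFSec 2.3-fold; eEFSec was not called after quantile normalization (0.38).

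Some of the largest differences lay outside the lists. The female-enriched fat body gene fit read 6712, 6137 and 7214 in adults, against 8.84, 1.6 and 10.1 in larvae, at least 187-fold higher (adjusted p = 3.08e-09). The serpin Spn77Bb rose at least 150-fold and the mucin Muc68D at least 72.4-fold. On the larval side, the acyl-CoA-binding protein Acbp4 read 13.8, 2.8 and 19 in adults, against 12297, 16785 and 19177 in larvae, at least 393-fold lower (adjusted p = 4.27e-10). The mucin Muc18B fell at least 94.5-fold and l(3)mbn at least 108-fold.

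The stages could also be compared in the Sps2 knockdown, on arrays not used here for the wild-type means. There 7768 probe sets were called between adults and larvae. Called in the same direction in both comparisons were 6040, which is 79.9% of the wild-type calls and 77.8% of the knockdown calls, and 15 were called in opposite directions. The comparisons share no array, but each probe set has 1 estimate of the spread in both. The difference between the comparisons, tested by an interaction term, passed the call for 895 probe sets (4.77%).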

How the data were processed

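Transcript levels were measured on 12 Affymetrix arrays, 3 in each of 4 groups, from total RNA labelled with biotin by a 3′ in vitro transcription kit, per the labels' protocols. The deposited table holds a log2 signal for each probe set on each array. The submitters' processing notes name MAS5, with no version in the sources used here, and the log2 scale was read from the values. The number of arrays limits the precision.

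Of 18952 probe sets, 183 controls were left out and 18769 tested, with no filter on low signals. The platform annotation gave 1 symbol for 13647 of these, several for 402 and none for 4720; 13544 were found in the RefSeq gene table, which changed 0 symbols. A gene was represented by its probe set with the highest mean over the 12 arrays. Of the list entries given by symbol, 111 of 598 were matched to no probe set and are not analysed here. Of the genes with more than 1 probe set, 26 of 1094 had probe sets called in opposite directions.

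All 12 arrays entered 1 fit with a mean per group (limma 3.58.1 in R 4.3.3, lmFit and eBayes with a trend in the variance); the spread is estimated over all 4 groups together. P-values of the adult minus larva contrast were adjusted by Benjamini-Hochberg over all probe sets tested. On arrays simulated with normal noise and no scaling difference between stages, changes were placed only in probe sets above the median signal. Recovered were 91 of 100 changes of 1.5 log2 and 99 of 100 of 3 log2, with 5 false calls among the 18769 probe sets. Recovery at low signals and the effect of scaling were not tested in this way. Lists are described by counts and medians and were not tested.

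Named are the key genes of each list, the 15 largest rises and 15 largest falls among called genes whose symbol is a gene name, with arrays that did not overlap and a higher mean at or above the median signal, and up to 4 further called members per list and direction. The members and lists were chosen with earlier results of these data known. Tried as alternatives were quantile normalization, centring each array on its median, a filter and a floor at the 40th percentile, the wild-type arrays alone, no variance trend, a replicate block, array weights, the mean of a gene's probe sets, the adjusted p alone, and leaving out each wild-type array.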

Additional observations from a re-analysis of the deposited data

Results flagged for a closer look

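The stage difference in the wild type was set against that in the knockdown for the 280 named genes by an interaction term in the limma fit, adjusted over all probe sets. The adjusted p passed for 69 of them, and 41 of these also differed by at least 2-fold between the comparisons. Over all probe sets 4.77% passed both. Genes other than the key ones were named for their wild-type difference, which is part of the interaction. The count among named genes therefore cannot be set against the share over all probe sets. In 15 of the 41, LysX, Ugt35B1 and Fbp2 among them, at least 1 of the 4 groups was low, so the size is not measured. The other 26 follow, each as the wild-type log2 difference (adult minus larva) minus the knockdown one.

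For Lsp2, the larval storage protein, it was -8.37 (SE 1.20, adjusted p = 0.000756): the stage difference was -4.85 in the wild type and 3.52 in the knockdown, where the arrays read 1598, 1503 and 1402 in adults, against 225, 127 and 77.6 in larvae. Its wild-type value rests in part on larval replicate 1 (-6.27 without it). For Cyp9b2, a cytochrome P450, it was -3.94 (SE 0.13, adjusted p = 6.97e-10). Wild-type arrays read 1085, 1101 and 1356 in adults, against 14608, 16715 and 15028 in larvae. Knockdown arrays read 1284, 1241 and 1354 in adults, against 1211, 1099 and 1021 in larvae, and the wild-type larvae were the high group. Idgf1, an imaginal disc growth factor of the chitinase family, gave 2.05, with stage differences of 1.21 in the wild type and -0.84 in the knockdown.

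Among the genes of gut, cuticle and detoxification the value was -3.82 for Bace, -2.37 for mag, -2.73 for Acp65Aa, -1.40 for Cpr65Au, 2.96 for Cyp6a19, -1.47 for Cyp28a5, -3.02 for GstD2, -1.44 for GstE5 and -1.58 for Ugt37A2. The sperm genes Mst87F (1.67), betaTub85D (1.23), Mst84Da (1.02), Mst84Dc (1.26) and djl (1.24) and the respiratory paralogues COX7AL (1.57) and COX5BL (1.57) all had the larger rise in the wild type. The rest were Yp3 (-1.34), Nplp3 (1.62), PPO1 (-1.86), ninaD (-2.08), Obp56a (1.00), Obp83cd (1.83) and Hex-C (1.23).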

How the results depend on the processing

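No called gene among those named changed direction under any alternative run, except under a floor at the 40th percentile, where aly, Shab, Gr58a and Or83c gave 0.17, Or10a 0.052 and lz 0.025, all near the gap between the floors of the stages, and under the mean of a gene's probe sets, where Hr39 gave 0.56. Calls lost among the 280 named genes numbered 28 with quantile normalization and 30 with centring. Centring gave 2821 probe sets higher and 5301 lower in adults, and the adjusted p alone gave 3989 lower.

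Of the list counts followed through every alternative, those below moved by over 1.5 times. Higher in adults after quantile normalization were 2 nervous system genes, 3 digestive carbohydrases and lipases and 3 hormone genes; lower were 12 neuropeptides, 9 chemoreceptors, 10 tubule genes, 3 mitochondrial ribosomal proteins, 1 oxidative phosphorylation gene and 11 disc genes. With centring, 1 lipid gene, 2 nervous system genes, 2 carbohydrases and lipases, 3 hormone genes and 1 selenoprotein gene were higher, and 14 neuropeptides, 46 chemoreceptors, 12 tubule genes, 24 mitochondrial ribosomal proteins, 53 oxidative phosphorylation genes, 9 glycolytic genes and 14 disc genes lower. In the opposite direction, quantile normalization gave 8 nervous system genes, 7 carbohydrases and lipases and 8 hormone genes lower, and 9 P450 genes, 2 chitin genes and 1 glutathione transferase higher. Centring gave 31 cytosolic ribosomal proteins, 25 odorant-binding proteins, 14 nervous system, 10 lipid, 8 hormone, 7 testis and 7 carbohydrase and lipase genes lower, and 9 P450 genes, 2 chitin genes and 1 glutathione transferase higher. Lists with counts of 5 or fewer on both sides also moved. The filter left 3 salivary genes and 4 chemoreceptors lower, and the floor 0 chemoreceptors and 1 lysozyme. By adjusted p alone, 12 lipid, 17 nervous system and 5 selenoprotein genes were higher, and 11 neuropeptides, 11 tubule genes, 25 glutathione transferases, 29 mitochondrial ribosomal proteins, 53 oxidative phosphorylation genes and 9 glycolytic genes lower. The causes were not tested.

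Leaving out 1 wild-type array at a time gave 7320 to 7369 probe sets called, against 7561 with all. Chemoreceptors lower in adults ranged from 7 (without larval replicate 2) to 15 (without adult replicate 3), and mitochondrial ribosomal proteins from 0 (without larval replicate 1) to 1. Arrays with the same replicate number did not deviate together (residual correlations -0.02, -0.01 and -0.02). These values show no pairing by number but cannot exclude a pairing, and the labels give none. With a replicate block, 4913 probe sets were higher and 2590 lower, 7503 in all, and of the named genes 1, Sgs7, lost its call.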
